A study of Mus musculus with 4 samples.

Results

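Chromatin accessibility was measured over 7 genes of coenzyme A synthesis in mouse hepatocytes before and after partial hepatectomy (PHx). Coenzyme A carries acyl groups through fatty acid oxidation, the citric acid cycle and lipid synthesis, all of them large in hepatocytes. The members were the pantothenate kinases Pank1, Pank2 and Pank3, the later enzymes Ppcs, Ppcdc and Coasy, and the pantetheinase Vnn1. They are 7 of 21911 protein-coding genes, and they were chosen by an earlier look at the counts over Pank1 in these libraries, which were lower after PHx, together with the pathway that Pank1 belongs to. The lower level over Pank1 is therefore a description of what chose the genes, with no test.

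In scATAC-Seq a transposase cuts accessible DNA, and the fragments of each nucleus are tagged with a barcode of their own. There were 4 libraries of hepatocytes from adult male C57BL/6J mice aged 10 to 12 weeks on a normal diet, 1 library each from undamaged liver (PHx 0 h) and from liver 48, 72 and 96 h after PHx, an operation that removes most of the liver and starts its regrowth. The cells came from collagenase perfusion of the liver. The 0 h and 48 h libraries each came from 1 hepatocyte preparation, and the sources used here do not give whether animals were pooled at 72 h and 96 h. With 1 library per time point there was no spread between animals to test against, so each difference between time points is a difference between libraries and cannot be told apart from one between animals, preparations or sequencing runs.

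The pathway starts from the vitamin pantothenate. Pantothenate kinases add a phosphate to it, the step that sets the rate of the whole route and that coenzyme A and its acyl forms inhibit. Ppcs then joins cysteine to the product, Ppcdc removes a carboxyl group, and Coasy, a bifunctional enzyme, carries out the last steps. Vnn1 works in the other direction: it splits pantetheine, a breakdown product of coenzyme A, and returns pantothenate. In the liver, Pank1 is known as a kinase gene tied to fasting and fatty acid oxidation. Pank1, Pank2 and Pank3 also each carry, in an intron, a gene of the miR-103/107 family of microRNAs.

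Those intronic microRNAs are shown first because they are what the 3 kinase loci share in sequence. The mature forms, 23 bases each and taken from RefSeq (GRCm38.p6), are written 5′ to 3′ with the seed, bases 2 to 8, in capitals. Mir107 lies in Pank1, Mir103-1 in Pank3 and Mir103-2 in Pank2, and both Mir103 genes give the same 3p form.
mmu-miR-107-3p: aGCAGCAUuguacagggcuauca
mmu-miR-103-3p: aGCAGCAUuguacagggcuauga
mmu-miR-107-5p: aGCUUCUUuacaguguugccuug
mmu-miR-103-1-5p: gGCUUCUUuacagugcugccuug
mmu-miR-103-2-5p: aGCUUCUUuacagugcugccuug
The 3p forms shared the seed GCAGCAU and were identical at 22 of 23 bases, with the substitution G22C from miR-103-3p to miR-107-3p, counted from the 5′ end. The 5p forms shared the seed GCUUCUU, with C16U from miR-103-2-5p to miR-107-5p, and with G1A and C16U from miR-103-1-5p to miR-107-5p.

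The start of Pank1 is shown next because the longest peak of the gene lay over it at 0, 72 and 96 h; at 48 h the longest, of 7575 bp, lay downstream of it in an intron. RefSeq gives Pank1 a pair of separate promoters, each printed as the 250 bases before a start site on the minus strand of GRCm38.p6, and neither overlaps an annotated exon. The upstream one ends at the start site at position 34879455 of chromosome 19, and capitals mark TATAAA (or its reverse complement TTTATA) and TGTTTAC, a forkhead motif.
Pank1 upstream promoter, chr19:34879456-34879705: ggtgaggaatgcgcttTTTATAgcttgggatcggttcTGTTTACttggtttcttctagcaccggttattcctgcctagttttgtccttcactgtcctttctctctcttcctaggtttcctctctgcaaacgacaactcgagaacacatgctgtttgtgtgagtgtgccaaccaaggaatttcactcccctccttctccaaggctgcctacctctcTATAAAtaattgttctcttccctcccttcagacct
The downstream one ends at the start site at position 34877917, and capitals mark CCAAT or its reverse complement ATTGG.
Pank1 downstream promoter, chr19:34877918-34878167: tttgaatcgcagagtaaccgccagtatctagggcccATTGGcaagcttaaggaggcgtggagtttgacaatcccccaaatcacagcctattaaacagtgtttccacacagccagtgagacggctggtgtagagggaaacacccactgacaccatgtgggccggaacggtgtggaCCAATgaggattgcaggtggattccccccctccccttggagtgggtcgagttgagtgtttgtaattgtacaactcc
The upstream promoter held 2 TATAAA matches and 1 TGTTTAC match, where 12.4% and 3.17% of 32841 mouse promoters of the same length hold at least 1 on either strand. The downstream promoter held 2 CCAAT matches, where 33.9% of promoters hold at least 1. Their G+C content was 46.4% and 52.8%, with 5 and 7 CpG, beside medians of 52.4% and 6 CpG over all promoters. Of the other kinases, Pank2 had 3 entries, with 78.4%, 65.6% and 44.4% G+C and 42, 22 and 2 CpG, and the Pank3 entry 63.6% with 17. All 250 bases of both Pank1 promoters lay inside a peak in each of the 4 libraries. A further search on both strands for the GC box GGGCGG, the nuclear receptor motif AGGTCA, the C/EBP motif TTGCNNAA and, for AP-1, the motif TGANTCA found no match in either promoter, which says only that those letters are not in these windows.

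Sequencing depth differed widely and moved with time. The libraries held 136949314, 62553202, 25540258 and 15809769 counts in peaks at 0, 48, 72 and 96 h, and between 3224 and 4256 barcodes per library had at least 1000 counts and were used as nuclei, with medians of 26005, 11629, 4841 and 3681.5 counts. Peaks had been called in each library on its own, and the 77580 to 164113 peaks per library covered 153.6, 179.0, 141.2 and 60.9 Mb. A level below is the counts in peaks over a gene body and the 2 kb upstream, normalised by the total counts of the nuclei (CPM), and it is given with the peak length it covers, since a longer called peak collects more counts. Intervals in parentheses are exact 95% Poisson intervals on fragments, and they cover counting error only. Pairs of libraries shared between 681 and 882 barcodes, and nuclei whose barcode also occurred in another library held 49.3% of the counts at 0 h. Hepatocyte markers were strong throughout, the 10 of them summing to 4317, 5625, 3907 and 5499 CPM, and none was at 0. The 10 endothelial markers summed to 267.5, 300.1, 334.6 and 207.2 CPM with Cdh5 at 0 at 0 h and 96 h, and the 10 myeloid markers to 171.3, 239.5, 212.9 and 110.3 CPM with Cd5l, Vsig4 and Tyrobp at 0 in every library. The 10 stellate markers summed to 77.3, 122.1, 167 and 137.7 CPM, so their sum was higher at each later time than at 0 h. Of these, Dcn, Des, Ecm1 and Hgf had no counts at 0 h, Dcn none at 48 h and Des none at 72 h. At 96 h Dcn, Des, Ecm1, Colec10 and Hgf had none. The 8 cholangiocyte markers summed to 174, 138.2, 147.9 and 151.4 CPM, with Krt19 at 0 in all but the 72 h library, and the 8 lymphoid markers to 2.62, 50.4, 8.53 and 3.55 CPM with Ms4a1, Nkg7 and Il7r at 0 in every library. The part of depth, shared barcodes or other cell types in the results below was not tested, beyond the values given with and without them.

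Pank1 had a higher level in undamaged liver than at any time after PHx. Its level was 372.1 CPM (367.5–376.7) at 0 h, 124.3 (120.4–128.3) at 48 h, 155.1 (148.2–162.2) at 72 h and 151.9 (143.1–161.0) at 96 h. The 0 h interval lay far above the other 3, the intervals at 72 h and 96 h overlapped, and both lay above the 48 h interval. On the log2(CPM + 1) scale the differences from 0 h were −1.57, −1.26 and −1.29, or 2.98-, 2.39- and 2.44-fold lower. With counts reduced to presence or absence per peak and nucleus they were −1.05, −0.80 and −0.80, the last 2 of them under 2-fold. A nucleus can then count once per peak, and the window held 12, 17, 22 and 13 peaks in the 4 libraries. Among 16839 genes with a mean of at least 50 counts, 0.713%, 3.68% and 7.39% had a lower ratio at the 3 times. The gene lies at 34806940 to 34879455 of chromosome 19 (mm10, minus strand), and the counts behind its levels were 50820, 7706, 3835 and 2268. Without the nuclei whose barcode occurred in another library the log2 differences were −1.57, −1.24 and −1.27.

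**Figure D1:**
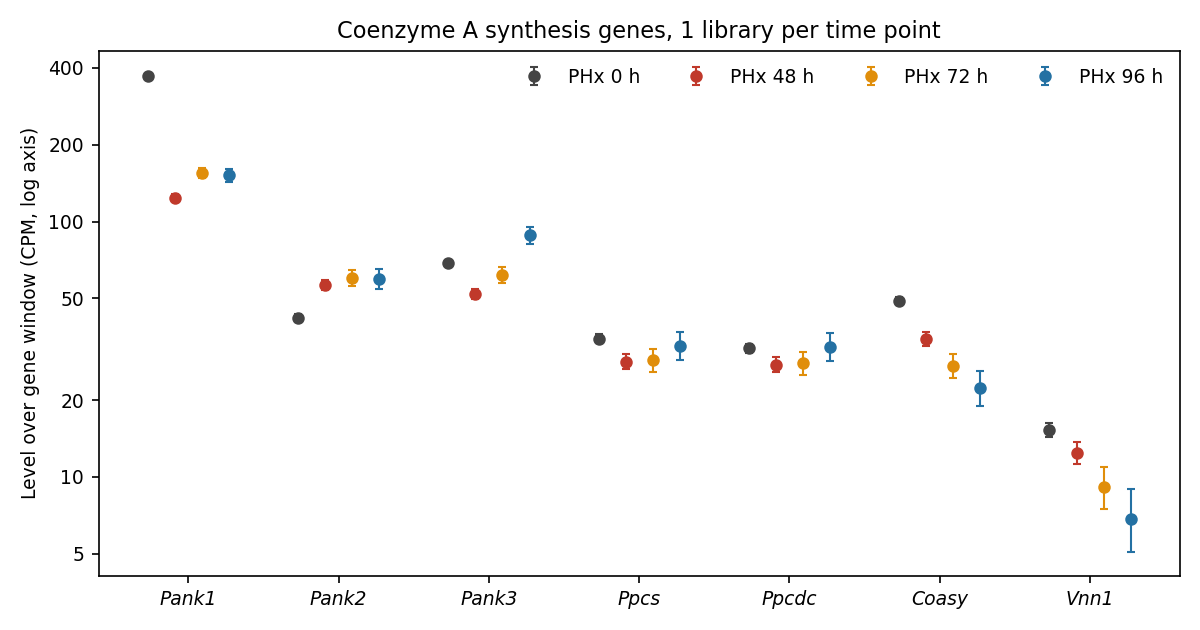
Level of each coenzyme A synthesis gene (CPM over the gene body and 2 kb upstream, log axis) in the 4 libraries, as points with exact 95% Poisson intervals for counting error. Pank1 stands at 372.1 CPM at 0 h and between 124.3 and 155.1 CPM afterwards, while Ppcs and Ppcdc stay between 27.5 and 34.8 CPM throughout.

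The peaks over Pank1 were also shorter after PHx. They covered 68021 bp at 0 h, 27750 bp at 48 h, 26989 bp at 72 h and 9792 bp at 96 h, which are log2 differences of −1.29, −1.33 and −2.78. At 0 h only 12 peaks made up this length, with a median of 3936 bp and a longest peak of 18101 bp, whereas the merged regions over the gene, described below, held 18, 24 and 14 peaks with medians of 1024, 952 and 498 bp at the later times. Pank1 stood among the genes with the most peak length in every library, above 99.1%, 93.3%, 96.0% and 94.6% of the genes tested. The loss of length at 48 h took place in a library whose peaks covered more of the genome than those at 0 h: 1.56% of genes had at least 2-fold shorter cover at 48 h and 10.4% had at least 2-fold longer cover. At 72 h the shares were 8.05% and 8.03%, and at 96 h they were 53.9% and 0.243%.

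Per kb of covered peak, the level of Pank1 did not keep its order. The density was 5.47 CPM per kb at 0 h, 4.48 at 48 h, 5.75 at 72 h and 15.5 at 96 h. The log2 differences in density were −0.29, 0.07 and 1.5, so that the lower level at 72 h and 96 h went with a shorter covered length and no lower density. The 96 h density was at least 2-fold above the 0 h density for 4 of the 7 members, Pank1, Pank2, Pank3 and Ppcs, beside 72.4% of the genes tested. No merged region of Pank1 had a covered length within a ratio of 0.8 of its 0 h length at any time, so level and length could not be separated for this gene.

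**Figure D2:**
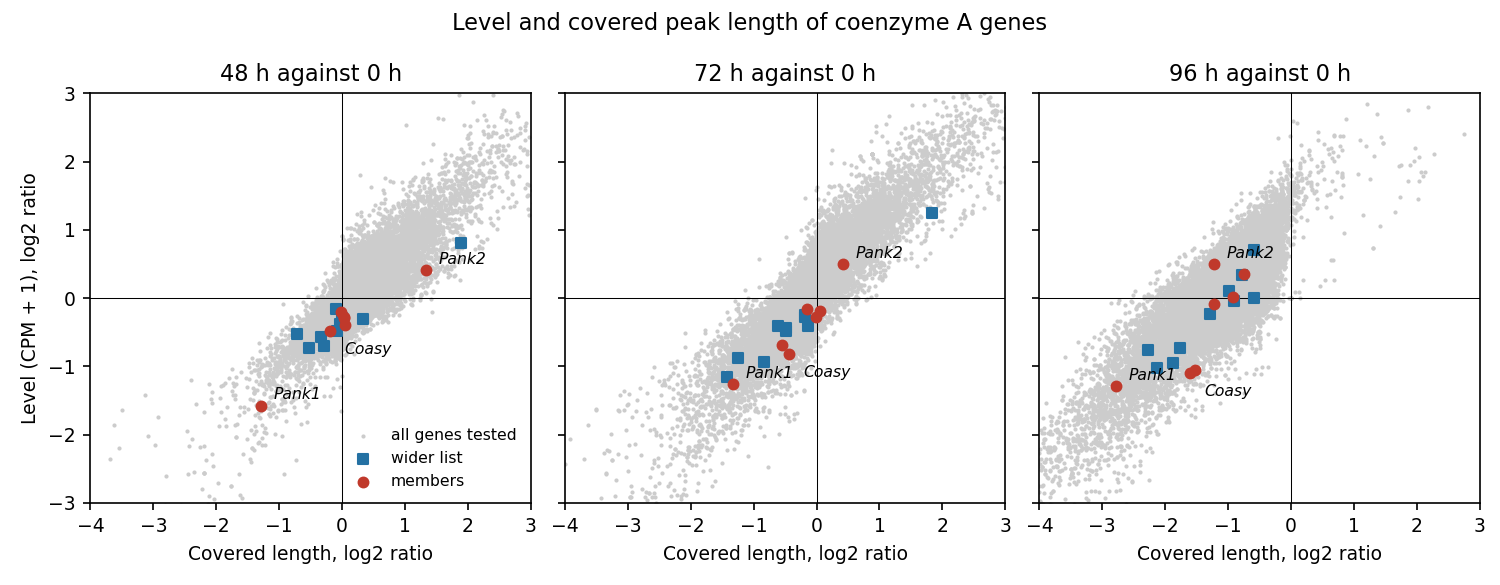
Log2 ratio of level (CPM + 1) against log2 ratio of covered peak length for the 16839 genes tested, the 10 wider coenzyme A genes and the 7 members, at 48, 72 and 96 h against 0 h. Genes beyond the axes are not drawn. Pank1 lies low and left in each panel, at level ratios of −1.57, −1.26 and −1.29, within the band in which genes with shorter cover tend to have lower levels.

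Peaks that overlapped or touched across libraries were merged into 12 regions over Pank1, numbered from the 3′ end (region 1) to the start sites (region 12). The boundaries of all 12 are those of the 0 h peaks. Each of the 12 had a lower level than at 0 h at each time. With counts reduced to presence or absence per peak and nucleus, region 12 was higher at all 3 times (log2 0.037, 0.27 and 0.35). It was 1 peak at 0 h and 3, 4 and 3 peaks later, so a nucleus could then count more than once. Regions 3, 6 and 8, the weakest at 0 h with 2.63, 0.754 and 0.593 CPM, had no peak after PHx, and region 9 had none at 96 h. A region without a peak has no counts, so its direction was set in advance. Its log2 difference was fixed by its 0 h level and the pseudocount. Of the regions that kept a peak, 8 of 9 were at least 2-fold lower at 48 h, 5 of 9 at 72 h and 4 of 8 at 96 h. The median log2 difference over the 12, which includes the fixed values of regions without a peak, was −1.38, −1.04 and −1.16. Density was lower in 8 of 9 regions at 48 h, in 5 of 9 at 72 h and in 0 of 8 at 96 h.

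**Figure D3:**
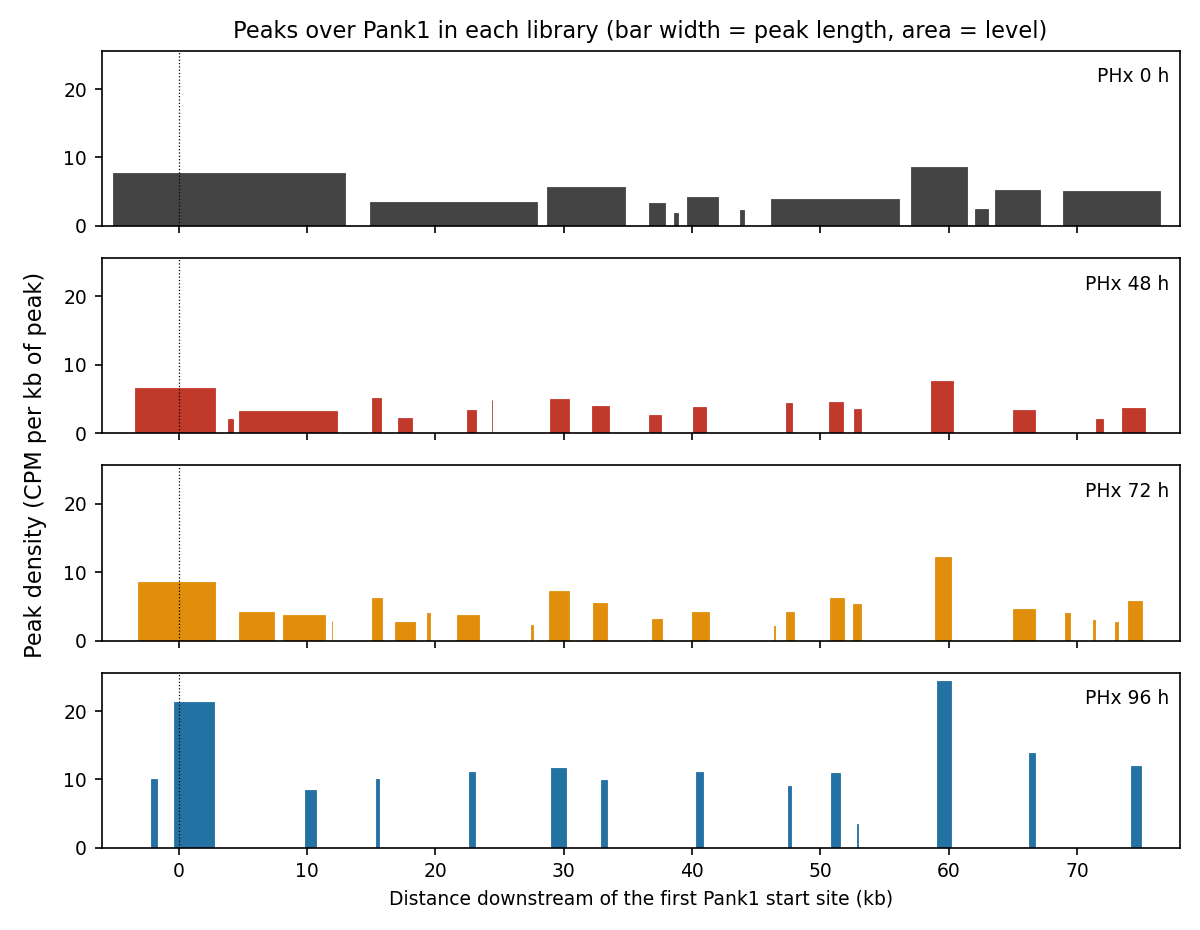
Peaks over Pank1 in each library against the distance downstream of the first start site (kb), drawn as bars whose width is the peak length, whose height is the density (CPM per kb of peak) and whose area is the level. At 0 h 12 peaks of very different length fill most of the gene, the longest of 18101 bp over the start sites, and at 96 h the peaks are narrow with a highest density of 24.4 CPM per kb.

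Region 12 holds all 4 annotated start sites of Pank1 and was the strongest region in every library. Its level was 140.8 CPM over 18101 bp at 0 h, 66.6 over 14151 bp at 48 h, 75.0 over 11991 bp at 72 h and 77.7 over 4380 bp at 96 h. The peak over the start sites alone had 140.8, 41.1, 51.2 and 66.3 CPM, with densities of 7.78, 6.58, 8.59 and 21.4 CPM per kb, and it was 18101, 6247, 5957 and 3102 bp long. The level of this peak was thus highest at 0 h, lowest at 48 h and higher again at 96 h, but over unlike lengths. The 0 h peak takes in intron that was a separate peak of 24.9 CPM at 48 h. Region 12 as a whole had the same order of levels, and the density of the start-site peak was highest at 96 h. The 12 regions summed to 372.1, 130.7, 162.1 and 161.6 CPM, which after 0 h is more than the level of the gene because region 1 then has peaks that lie past the 3′ end. Region 12 made up 37.8% of this sum at 0 h and 51.0%, 46.3% and 48.1% afterwards. The other regions summed to 231.3 CPM at 0 h and 64.1, 87.1 and 83.8 CPM later.

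Among the regions that kept a peak throughout, the largest differences were in regions 11, 1 and 5. Region 11, in an intron (34851519–34864577), had 44.8 CPM at 0 h and 8.66, 16.6 and 7.23 CPM later, with log2 differences of −2.25, −1.38 and −2.48. Its single 0 h peak of 13059 bp gave way to 4, 5 and 2 peaks that together covered 2533, 4394 and 674 bp. Region 1, which runs past the 3′ end of the gene (34803023–34810589), had 38.9 CPM at 0 h and 7.58, 9.06 and 9.71 CPM later, and its 1 peak at 96 h lay wholly outside the gene. Region 5 (34823333–34833313, with an exon) had 39.1 CPM at 0 h and 9.48, 13 and 10.6 CPM later. In all 3 of these regions the 0 h interval lay above every later one.

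Region 4, which holds Mir107, differed least at 96 h. It had 37.8 CPM (36.3–39.2) at 0 h, 13.5 (12.3–14.9) at 48 h, 15.9 (13.8–18.3) at 72 h and 26.2 (22.6–30.1) at 96 h. The intervals at 48 h and 72 h overlapped, and the 96 h interval lay above both and below that of 0 h. Its log2 difference at 96 h, −0.51, was the smallest of the 12 regions, and its density there, 24.4 CPM per kb, was the highest of any Pank1 peak in any library. Region 10, in an intron, had 34.1 CPM at 0 h and 12.8, 16.8 and 18.2 CPM later. Region 2 had 18.2, 5.82, 7.97 and 6.03 CPM, and region 7 had 10.3, 3.77, 5.34 and 5.89 CPM.

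**Figure D4:**
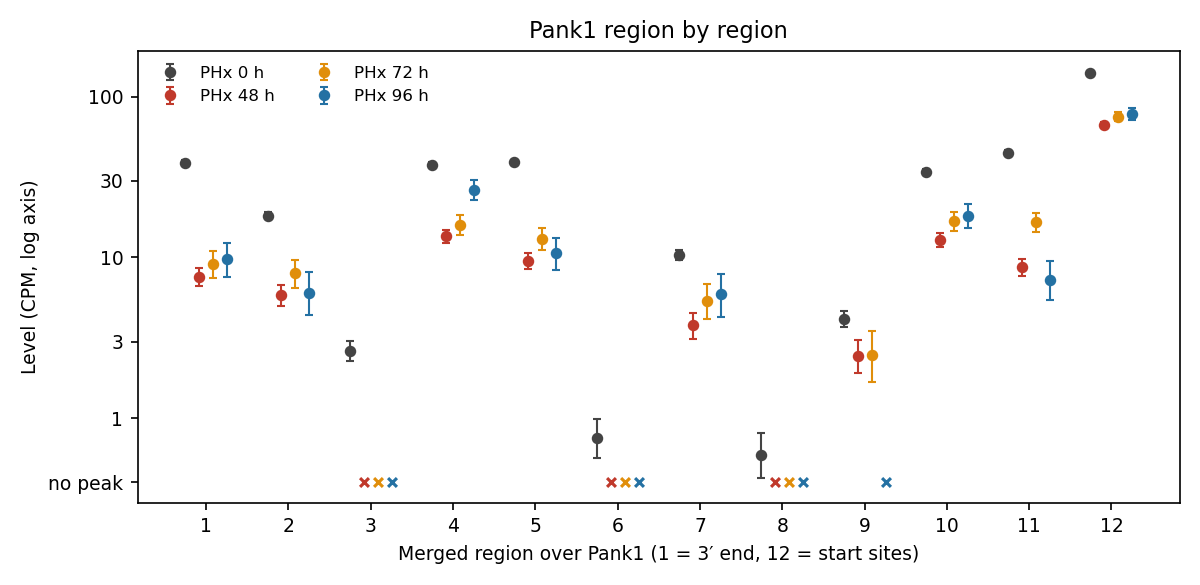
Level (CPM, log axis) of the 12 merged regions over Pank1 in the 4 libraries, from region 1 at the 3′ end to region 12 at the start sites, with exact 95% Poisson intervals for counting error. Crosses on the lowest line mark a region with no peak in that library. The 0 h point is the highest in every region, and region 4 at 96 h (26.2 CPM) comes nearest to its 0 h level (37.8 CPM).

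Intronic cores from 3 of the regions are printed, each wholly inside a peak in all 4 libraries while the peaks around it shortened. Other 96 h peaks met the same rule and are not printed. They include those of regions 2 and 7 and stronger ones in regions 5 and 11. Each printed core is on the minus strand of GRCm38.p6 and overlaps no exon. In region 4 the central 300 bases of the 96 h peak are shown, with capitals at AGGTCA and its reverse complement TGACCT, a motif of nuclear receptors.
Pank1 region 4, chr19:34819685-34819984: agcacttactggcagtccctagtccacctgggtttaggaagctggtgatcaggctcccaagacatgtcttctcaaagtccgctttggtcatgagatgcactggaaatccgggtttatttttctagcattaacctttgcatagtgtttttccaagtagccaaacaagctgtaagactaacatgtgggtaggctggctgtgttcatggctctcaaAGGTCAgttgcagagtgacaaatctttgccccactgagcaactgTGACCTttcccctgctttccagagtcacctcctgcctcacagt
This sequence held 2 such matches, and 24.2% of 77575 central sequences of 96 h peaks of that length hold at least 1. In region 5 the whole 96 h peak of 223 bp is shown, with capitals over 1 match to TTGCNNAA in its reverse complement TTNNGCAA, the form bound by C/EBP factors, and over 1 ATTGG match that shares 1 base with it.
Pank1 region 5, chr19:34831775-34831997: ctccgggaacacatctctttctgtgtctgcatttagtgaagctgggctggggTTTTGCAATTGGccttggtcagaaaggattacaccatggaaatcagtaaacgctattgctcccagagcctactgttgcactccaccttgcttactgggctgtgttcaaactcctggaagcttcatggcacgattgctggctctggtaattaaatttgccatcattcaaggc
Of peaks cut to that length, 12.8% hold TTGCNNAA and 26.2% hold CCAAT on either strand. The peak over it had 39.1 CPM over 9981 bp at 0 h, 2.29 over 518 bp at 48 h, 2.51 over 608 bp at 72 h and 2.01 over 223 bp at 96 h. The 0 h peak fills region 5, which as a whole had 9.48, 13 and 10.6 CPM later. Its strongest 96 h peak, at 34827894-34828642, had 8.24 CPM. In region 11 the 96 h peak of 234 bp is shown, with capitals at 1 ATTGG match, which 27.3% of peaks cut to that length hold on either strand.
Pank1 region 11, chr19:34863817-34864050: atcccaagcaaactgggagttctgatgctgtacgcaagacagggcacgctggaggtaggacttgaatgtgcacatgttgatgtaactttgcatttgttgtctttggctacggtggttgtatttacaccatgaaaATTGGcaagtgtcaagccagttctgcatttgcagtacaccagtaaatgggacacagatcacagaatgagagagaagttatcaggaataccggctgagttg
The peak over it had 44.8 CPM over 13059 bp at 0 h, then 3.71 over 728 bp, 5.06 over 810 bp and 2.34 over 234 bp. The 0 h peak fills region 11, which as a whole had 8.66, 16.6 and 7.23 CPM later. Its stronger 96 h peak, at 34856355-34856794, had 4.89 CPM. A match is a description of the letters and not a bound site.

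The intronic microRNA genes differed in whether a peak covered them. Mir107 (chromosome 19, 34820687 to 34820773) was inside a peak at 0 h and at 48 h, and 139 and 317 bp from the nearest peak at 72 h and 96 h. Mir103-1 (chromosome 11, 35782396 to 35782481) overlapped a peak at 72 h, which starts 2 bp inside it, and lay 102, 103 and 478 bp from the nearest peak at 0, 48 and 96 h. Mir103-2 (chromosome 2, 131288052 to 131288137) was in no peak and at least 1403 bp from one in each library. A peak over a microRNA gene inside a host intron does not say whether the microRNA was made.

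Pank2, whose enzyme acts largely in mitochondria in humans, had a higher level after PHx, at 48 h only with its 3′ peak counted. Its level was 42.1 CPM (40.5–43.6) at 0 h, 56.4 (53.8–59.1) at 48 h, 59.98 (55.7–64.5) at 72 h and 59.7 (54.2–65.5) at 96 h. The 0 h interval lay below the other 3, which overlapped, and the log2 differences were 0.41, 0.50 and 0.49. The 48 h value rested on 1 peak of 6640 bp at the 3′ end, which also lies in the window of Rnf24, on the opposite strand, and gave 17.6 CPM. In regions with a peak in every library the log2 difference at 48 h was −0.21, and with only peaks at least 50% inside the window it was −0.12. The peak over the Pank2 start sites near the 5′ end had 36.3, 30.9, 44.1 and 56.9 CPM, so that the start sites were lower than 0 h at 48 h (log2 −0.23) and higher at 72 h and 96 h (0.27 and 0.64). Their densities were 14.6, 12.2, 21.2 and 32.7 CPM per kb. The peaks of the whole gene covered 4715, 12030, 6330 and 1972 bp.

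Pank3, a cytosolic pantothenate kinase, had its lowest level at 48 h and its highest at 96 h. Its level was 68.8 CPM (66.9–70.8) at 0 h, 52.1 (49.6–54.7) at 48 h, 61.6 (57.3–66.2) at 72 h and 88.3 (81.7–95.3) at 96 h. No pair of these intervals overlapped. The start-site peak gave 43.9, 34.6, 42.9 and 71.7 CPM, and the second peak, which overlapped Mir103-1 at 72 h and lay downstream of it in the other libraries, gave 21.3, 14.3, 13.9 and 16.6 CPM. The higher value at 96 h thus lay at the start site, and the second peak was at its highest at 0 h. The log2 differences of the whole gene, −0.40, −0.16 and 0.36, were all under 2-fold. Covered length was 6099, 6302, 5467 and 3601 bp.

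The enzymes of the middle of the pathway differed little. Ppcs, which joins cysteine to phosphopantothenate, had 34.8, 28.2, 28.6 and 32.7 CPM, all from 1 peak per library that the window of Zmynd12 shares, so the 2 genes cannot be told apart here. Ppcdc, the decarboxylase, had 31.9, 27.5, 27.9 and 32.3 CPM, and its window overlaps that of Scamp5. For both genes the 48 h interval lay below that of 0 h, the 0 h and 96 h intervals overlapped, and the log2 differences lay between −0.29 and 0.02. Covered length was 3410, 3505, 3400 and 1408 bp for Ppcs and 3698, 3638, 3841 and 1910 bp for Ppcdc, so the cover of both genes was shortest at 96 h. The main peak of Ppcdc had 23.0, 18.2, 15.9 and 21.8 CPM, and its second start-site peak had 5.19, 5.50, 7.48 and 7.5 CPM.

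Coasy, which carries out the last steps, had a lower level at each later time. Its level was 48.9 CPM (47.3–50.6) at 0 h, 34.7 (32.7–36.9) at 48 h, 27.3 (24.5–30.4) at 72 h and 22.2 (18.98–25.9) at 96 h. The intervals at 0, 48 and 72 h were separate and those at 72 h and 96 h overlapped. The start-site peak had 34.1, 24.9, 18.9 and 22.2 CPM, so it was lowest at 72 h. The 3′ peak, shared with the window of Mlx, had 14.8, 9.85 and 8.41 CPM, and at 96 h no peak there reached the Coasy window. With every peak of the merged regions counted, including those just outside the window, the log2 difference at 96 h was −0.64, and with a pseudocount of 5 CPM it was −0.99, both under 2-fold. The log2 difference at 96 h was −1.10 over the window and −0.60 at the start sites, which is under 2-fold. Covered length followed the same order, with 5665 bp at 0 h and then 4929, 4137 and 1788 bp, and per kb of covered peak Coasy was higher at 96 h than at 0 h (log2 0.53).

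Vnn1, the pantetheinase, also had its lowest level at 96 h. It had 15.3 CPM (14.4–16.3) at 0 h, 12.4 (11.2–13.7) at 48 h, 9.10 (7.5–10.9) at 72 h and 6.83 (5.08–8.98) at 96 h, the last from 102 counts. The intervals at 0, 48 and 72 h were separate, and those at 72 h and 96 h overlapped. The peak upstream of its start had 7.45, 4.10, 2.71 and 2.88 CPM, and the peak within 1 kb of the start sites had 7.85, 8.32, 6.39 and 3.95 CPM. That peak covered both annotated start sites at 0, 48 and 72 h, whereas at 96 h it lay downstream of them and no peak covered either. It was thus no lower at 48 h than at 0 h. At 96 h the log2 difference was −1.06 over the window and −0.84 for the peaks within 1 kb of the start sites, which is under 2-fold. The value over the window was also under 2-fold with barcodes of at least 3000 counts (−0.99), with every deposited barcode (−0.97), without barcodes found in another library (−0.99) and with a pseudocount of 5 CPM (−0.78). Its peaks covered 2480, 2548, 1659 and 799 bp, and per kb of covered peak it too was higher at 96 h than at 0 h (log2 0.47).

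Between 1 and 3 of the 7 members passed 2-fold. At 48 h 1 of 7 was at least 2-fold lower (Pank1), at 72 h 1 of 7 (Pank1) and at 96 h 3 of 7 (Pank1, Coasy and Vnn1), beside 1.88%, 5.86% and 10.8% of all genes tested. None of the 7 was at least 2-fold higher, beside 7.21%, 12.3% and 5.39%. The count at 96 h depends on the settings given above for Coasy and Vnn1. With counts of presence or absence, Pank1 was under 2-fold at 72 h and 96 h, and Vnn1 was past it at 72 h (log2 −1.07). The lower level of Pank1 chose the list, so nothing is read from its place in these counts. The median log2 difference of the 7 was −0.29, −0.27 and −0.09, beside −0.01, 0.02 and 0.05 over all genes. Covered length was at least 2-fold shorter for 1, 1 and 5 of the 7, beside 1.56%, 8.05% and 53.9% of all genes tested. Per kb of window, Coasy had the highest level at 0 h, with 8.08 CPM, followed by Ppcs with 5.90 and Pank1 with 4.99, and Ppcdc the lowest, with 0.559. The place of Coasy rests in part on its 3′ peak of 14.8 CPM, which Mlx shares and which lies mostly outside the window. At 96 h the order began with Ppcs at 5.55, Pank3 at 3.71 and Coasy at 3.67, with Pank1 at 2.04, and the intervals of Pank3 and Coasy overlapped.

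The 10 wider genes were relatives of the members, transporters, and enzymes that use or cut coenzyme A. At 48 h none was past 2-fold in either direction. At 72 h Nudt19, a peroxisomal coenzyme A diphosphatase, was at least 2-fold lower and Pank4 at least 2-fold higher, and at 96 h Nudt19 alone was past 2-fold, lower. Nudt19 had 91.4 CPM at 0 h and 61.0, 40.4 and 44.5 CPM later, over 13569, 10750, 4974 and 3020 bp. Pank4, a relative of the kinases whose protein acts as a phosphatase, had 34.2 CPM at 0 h and 60.7, 82.6 and 56.6 CPM later, and its covered length grew from 3147 bp to 11933 and 11458 bp before 2059 bp at 96 h. The peaks at the Pank4 start sites had 30.7, 29.8, 44.1 and 52.3 CPM, so the 48 h difference lay outside them. Slc25a42, the mitochondrial coenzyme A carrier, had 261.5, 161.1, 136.3 and 156.6 CPM over 37530, 30701, 20900 and 10988 bp. Nudt7, another peroxisomal coenzyme A diphosphatase, had 243.9, 219.4, 206.4 and 244.3 CPM. Below 0 h were 9, 9 and 6 of the 10, beside 8549, 8154 and 7699 of all 16839 genes tested, and the median log2 difference of the 10 was −0.43, −0.43 and −0.13. Vnn3, a paralog of Vnn1, had 34.0, 23.4, 17.96 and 17.1 CPM, and its log2 difference at 96 h was −0.95.

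The difference over Pank1 did not extend to all its neighbours. Slc16a12, a monocarboxylate transporter gene on its 3′ side, had 113.4 CPM at 0 h and 67.0, 58.9 and 68.5 CPM later, with log2 differences of −0.75, −0.93 and −0.72. Kif20b, a kinesin gene on the other side, had 20.7, 14.3, 18.04 and 25.7 CPM. Ifit1 had 6.03, 6.71, 9.34 and 9.37 CPM, and Htr7 had at most 2.99 CPM. Among 14237 genes with at least 1000 counts at 0 h, the 5 whose 3 log2 ratios were nearest to those of Pank1 were Psma4, Acaa1a, P2rx4, Ak4 and Mpv17l2, with a largest difference between 0.13 and 0.20. Acaa1a, a peroxisomal thiolase that releases acetyl coenzyme A, had 161.6, 59.1, 69.6 and 65.2 CPM, and Ak4, a mitochondrial adenylate kinase, had 148.1, 56.5, 66.5 and 62.1 CPM. All 5 also had shorter cover at each later time, such as 19.7 kb at 0 h and 9.12, 8.12 and 4.79 kb later for Acaa1a. The likeness is over 3 ratios that share the 0 h library.

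Clustering each library on its own separated nuclei with clearly lower hepatocyte markers, called hepatocyte-low here, from hepatocyte-like nuclei. The hepatocyte-low clusters held 298, 216, 322 and 0 nuclei at 0, 48, 72 and 96 h, and their nuclei were shallow, with medians of 3499, 2075 and 1693 counts beside 28512, 12448.5, 5154.5 and 3681.5 in hepatocyte-like nuclei. In hepatocyte-like nuclei Pank1 had 375.0 CPM (370.3–379.6) at 0 h, 124.1 at 48 h, 155.8 at 72 h and 151.9 at 96 h. No cluster was hepatocyte-low at 96 h, so that value is the one over all nuclei. In hepatocyte-low nuclei it had 156.3 CPM (131.5–184.4) at 0 h, 137.1 (102.7–179.3) at 48 h and 130.9 (96.2–174.1) at 72 h, and these 3 intervals overlapped. Pank1 was thus higher in hepatocyte-like nuclei at 0 h, while at 48 h and 72 h the 2 sets of nuclei overlapped. Coasy, Ppcdc and Pank3 had the opposite order at 0 h, with 93.2, 78.1 and 96.5 CPM in hepatocyte-low nuclei beside 48.3, 31.2 and 68.4 CPM in hepatocyte-like nuclei. Coasy and Ppcdc kept that order at 48 h, with 69.8 and 73.7 CPM beside 34.3 and 26.9 CPM and intervals that did not overlap, whereas at 72 h the intervals of both genes overlapped between the 2 sets.

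Among the hepatocyte-like clusters, Pank1 was lower after PHx in every cluster. It lay between 338.6 and 414.0 CPM in the 4 clusters at 0 h, between 103.9 and 155.4 CPM in the 4 clusters at 48 h, at 143.6 and 174.9 CPM in the 2 clusters at 72 h, and between 148.6 and 160.0 CPM in the 3 clusters at 96 h. The highest later cluster, 174.9 CPM, was below the lowest 0 h cluster, 338.6 CPM. At 48 h 2 clusters had 103.9 and 105.8 CPM and the other 2 had 148.4 and 155.4 CPM. Coasy had 26.7 and 25.8 CPM in the former and 48.4 and 45.0 CPM in the latter. The clusters were made without the peaks over the members, and nuclei of 1 library are not replicates, so this spread is a description.

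After each nucleus was thinned to 2000 counts, 48.7% (47.0–50.4) of 3500 hepatocyte-like nuclei had a Pank1 count at 0 h, 18.6% (17.3–19.9) of 3469 at 48 h, 22.4% (21.0–23.8) of 3496 at 72 h and 21.6% (20.01–23.3) of 2484 at 96 h, with exact binomial intervals. Thinning left out 179, 207, 438 and 740 shallower nuclei. Without thinning the shares in those nuclei were 90.9%, 52.6%, 37.2% and 33.6%, an order that follows depth. Hepatocyte-low nuclei thinned in the same way gave shares of 21.0% (15.8–27.0) at 0 h, 15.5% (9.27–23.6) at 48 h and 14.5% (8.84–21.97) at 72 h, from 219, 110 and 124 nuclei. The hepatocyte-like share was well above the hepatocyte-low share at 0 h, and the intervals overlapped at 48 h and 72 h.

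The other members were found in fewer thinned nuclei. In the same nuclei Pank2 had a count in 7.57% at 0 h and in 10.2%, 9.15% and 8.82% later, Pank3 in 11.7% and then in 8.82%, 8.75% and 12.3%, and Coasy in 9.17% and then in 5.07%, 4.15% and 3.42%. Vnn1 had a count in 2.46%, 2.13%, 1.37% and 1.21%, Ppcs in 6.54%, 4.24%, 4.18% and 4.55%, and Ppcdc in 6.37%, 4.99%, 4.26% and 4.83%. The order over time followed that of the levels for Pank3 at 0, 48 and 96 h, for Coasy and for Vnn1. For Pank2 the shares after PHx went against the order of its levels, so no order is read from them.

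The levels of some other members in the same hepatocyte-like clusters differed between libraries. Clusters of the same library share its preparation and peaks and are not replicates. The ranges below are therefore a description of the libraries, and a difference with time was not tested. Coasy lay between 43.5 and 59.4 CPM in the 0 h clusters and between 19.5 and 23.9 CPM in those at 96 h, with no overlap, while at 48 h it reached from 25.8 to 48.4 CPM. Vnn1 lay between 13.6 and 16.7 CPM at 0 h and between 4.77 and 7.56 CPM at 96 h, again with no overlap. Per kb of covered peak, over all nuclei, Coasy and Vnn1 were instead higher at 96 h than at 0 h (log2 0.53 and 0.47). Pank2 lay between 37.7 and 44.8 CPM at 0 h and at 51.1 CPM or above in every later cluster, where the 48 h values include the 3′ peak shared with Rnf24. Pank3 lay between 63.0 and 82.4 CPM at 0 h and between 79.2 and 102.1 CPM at 96 h, and these ranges overlapped.

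**Figure D5:**
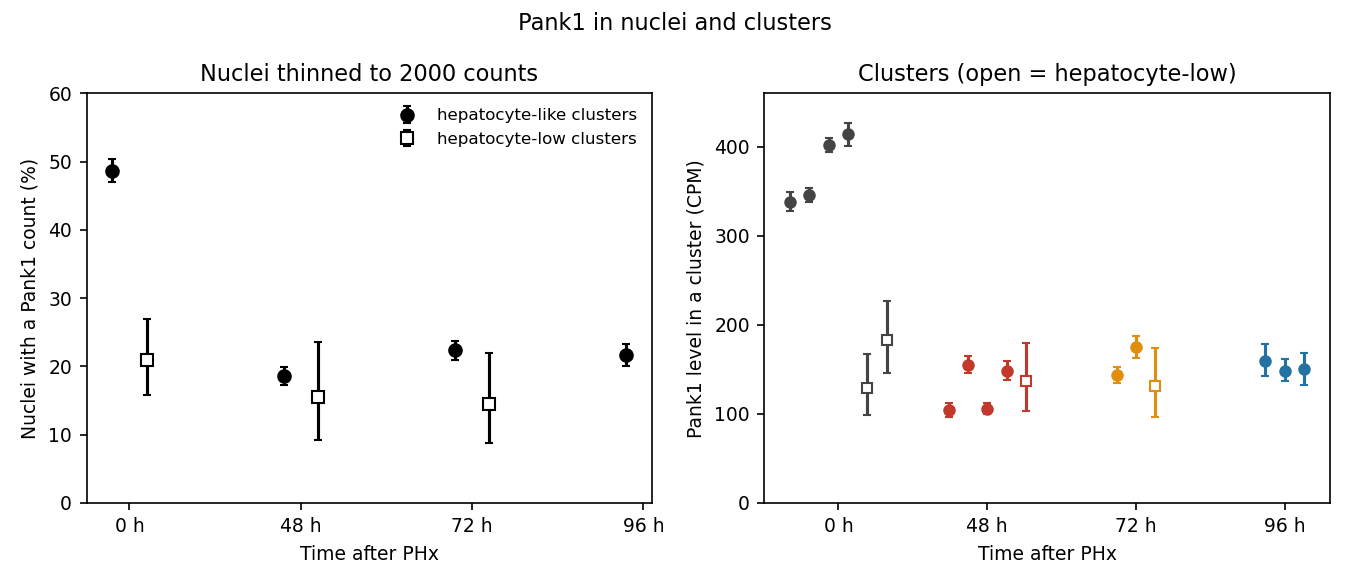
Left, share of nuclei with a Pank1 count after thinning to 2000 counts (percent, exact 95% binomial intervals) in hepatocyte-like and hepatocyte-low clusters at each time after PHx. Right, Pank1 level (CPM, exact 95% Poisson intervals) in each cluster, with hepatocyte-low clusters open. Hepatocyte-like clusters lie at 338.6 CPM or above at 0 h and at 174.9 CPM or below afterwards.

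Nuclei were also set apart by zone, the position between portal and central vein. Zone was set after thinning to 2000 counts, and the levels use all counts of the nuclei. Hepatocyte-like nuclei with counts in the 10 pericentral marker genes and none in the 10 periportal ones had 469.4 CPM (420.4–522.5, 44 nuclei, median 31716 counts) over Pank1 at 0 h. Nuclei with the reverse pattern had 343.7 CPM (329.5–358.3, 436 nuclei, median 23623 counts). At 48 h the values were 180.0 CPM (150.2–214.0; 89 nuclei) and 105.8 CPM (93.9–118.8; 402 nuclei). Pank1 was thus higher in these pericentral nuclei than in the periportal ones of both libraries. At 48 h the hepatocyte-like clusters did not all follow this order. Their pericentral markers had median log2 ratios to the other nuclei of −0.21, −0.33, 0.20 and 0.38. Pank1 stood in those clusters at 103.9, 155.4, 105.8 and 148.4 CPM. The 10 pericentral markers themselves summed to 1628, 1676, 1277 and 874.9 CPM over all nuclei at 0, 48, 72 and 96 h, and the 10 periportal markers to 3501, 3383, 2898 and 3827 CPM, and the part of these shifts in the level of Pank1 was not tested. At 72 h the levels were 171.0 and 169.0 CPM and at 96 h 178.6 and 149.95 CPM, and the intervals overlapped at both times. For the other 6 members the intervals of the 2 sets of nuclei overlapped at every time. Most nuclei had counts in both sets of markers or in neither and were in neither group.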

How the data were processed

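The authors deposited, for each of 4 scATAC-Seq libraries, counts of transposase cuts per peak and nucleus in peaks called on that library alone (Cell Ranger ATAC 1.1.0 per the file headers, and mm10 per the submitters' processing notes). Between 87.3% and 88.6% of the values were even, since each fragment has 2 ends, so intervals were computed on counts divided by 2. Duplicate molecules cannot be checked in these files, and intervals cover counting error only.

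From these, barcodes with at least 1000 counts were summed per library, scaled to CPM by the total and summed over the peaks that overlap each gene body and its 2 kb upstream (GENCODE vM21). Ratios used a pseudocount of 1 CPM, or of 100 bp for covered length, and genes with a mean of at least 50 counts over the libraries were tested against the 2-fold limit. All 7 members passed this filter. With 1 library per time point no test across samples was made. Peaks that overlap or touch were merged into 200890 regions, of which 64118 had a peak in every library.

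Each library was clustered on its own (30 components, Leiden resolution 0.5). A cluster was called hepatocyte-low where the median log2 ratio of its detected hepatocyte markers to the other nuclei of the library was −1 or below. No doublet caller was run, and leaving out the 5% of barcodes with the most counts stood in for one. The genes named were the 7 members, 10 wider coenzyme A genes, genes that overlap a member window, the 2 nearest on each side of Pank1, and the 5 genes most like it. The members and lists were chosen with earlier results of these data known. Sequences came from RefSeq (GRCm38.p6, the assembly behind mm10), with microRNA and promoter entries matched by symbol. Counting, intervals and overlaps were tested on simulated data. The tools were Python 3.11.15, numpy 2.4.6, scipy 1.17.1, pandas 2.3.3, scikit-learn 1.9.0, leidenalg 0.10.2 and matplotlib 3.10.9.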

Additional observations from a re-analysis of the deposited data

How the results depend on the processing

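No paired analysis was possible because each time point has 1 library, and none was left out in turn for the same reason. Alternatives that leave out nuclei with a barcode found in another library, or that count every peak of a merged region, were chosen after seeing the data.

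The log2 difference of Pank1 at 48, 72 and 96 h (−1.57, −1.26 and −1.29) kept its direction under every alternative except per kb of covered peak, where it was −0.29, 0.071 and 1.5 and reversed at 72 h and 96 h. With counts reduced to presence or absence per peak and nucleus it was −1.05, −0.80 and −0.80. With the whole length of peaks that reach within 1 kb of the start sites it was −1.75, −1.44 and −1.07. Those peaks were 18101, 6247, 5957 and 3102 bp long at 0, 48, 72 and 96 h. Over all of region 12, which the 0 h peak fills, the log2 differences were −1.07, −0.90 and −0.85. With peaks at least 50% inside the window the Pank1 value was −1.42, −1.10 and −1.13. Scaled to promoter peaks it was −1.45 at 48 h and −1.05 at 72 h, and scaled to regions shared by every library −1.5 at 48 h and −1.40 at 96 h. With every peak of the merged regions it was −1.5 at 48 h and −1.20 at 96 h. At 96 h it was −1.17 with barcodes weighted equally and −1.59 with only peaks of at least the median count. Regions of nearly equal covered length gave no value for Pank1. The other 40 of 60 values of Pank1 moved by less than the counting interval.

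Per kb of covered peak, Coasy and Vnn1 also reversed at 96 h (0.53 and 0.47), as did Pank1 region 1 (1.22), region 2 (1.41), region 5 (0.11, 0.46 and 1.34 at 48, 72 and 96 h), region 11 (0.14 and 1.64 at 72 h and 96 h) and region 4 at 72 h (0.50). Values under 2-fold that turned sign per kb were those of region 4 (1.5), region 7 (1.39), region 10 (0.99) and region 12 (1.19) at 96 h, region 10 at 72 h (0.21), Ppcs at 96 h (1.19) and Pank2 at 48 h (−0.93). Counting every peak of the merged regions, Coasy at 96 h was −0.64, and with only peaks of at least the median count Vnn1 at 96 h was −4.03. With presence or absence, Vnn1 passed 2-fold at 72 h (−1.07), and region 12 turned sign at 48, 72 and 96 h (0.037, 0.27 and 0.35). Scaled to promoter peaks, Pank3 and Ppcdc turned sign at 72 h (0.050 and 0.016). With only peaks that reach within 1 kb of the start sites, Pank2 (−0.23) and Vnn1 (0.075) did so at 48 h, and so did Vnn1 over the gene body alone (0.075). Pank2 at 48 h was also negative with peaks at least 50% inside the window (−0.12) and in regions with a peak in every library or of nearly equal covered length (−0.21 in both). With presence or absence Ppcs at 96 h was 0.0099. Ppcdc at 96 h (0.021) turned negative under 5 alternatives, to between −0.12 and −0.033.

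The percentages of genes past the limit, lower and higher, were 6.69 and 15.8 at 48 h, 15.2 and 22.2 at 72 h, and 19.6 and 17.9 at 96 h with a 1.5-fold limit. In regions of nearly equal covered length they were 0.977 and 0.610, 1.60 and 1.89, and 0.704 and 42.0. Per kb of covered peak they were 1.03 and 0.192, 0.307 and 2.51, and 0.0377 and 72.4. Depth fell from 0 h to 96 h, and the cause of these shifts was not tested.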
